A study of Mus musculus with 6 samples.

Results

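The 10 genes described here are the Fos family (Fos, Fosb, Fosl1 and Fosl2), the Jun family (Jun, Junb and Jund) and 3 further immediate early genes (Egr1, Dusp1 and Ier3). They were chosen by name from the 12894 genes of the deposited table, with earlier results of these data known. All 10 were measured and tested. Junb and Jund both lie on chromosome 8 and Dusp1 and Ier3 both on chromosome 17, while Fos is on 12, Fosb on 7, Fosl1 on 19, Fosl2 on 5, Jun on 4 and Egr1 on 18 (GENCODE M21). The 6 RNA sequencing libraries came from epidermis of C57BL/6 mice at postnatal day 0, separated from the dermis. The 3 libraries labelled knockout have the genotype label Hnrnpu knockout, made with a loxP-Cre system. Of the 3 controls, control 1 is labelled Wild type, and controls 2 and 3 carry the label Heterogenous, which is not explained there. The promoter that drives Cre, the deleted part of Hnrnpu and the animals' sex are not stated by the labels. Hnrnpu encodes a nuclear protein that binds RNA and the nuclear scaffold.

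AP-1 is a transcription factor built of pairs of proteins, usually a Fos protein joined to a Jun protein by a leucine zipper. Immediate early genes are switched on by growth factors, stress or injury without new protein synthesis, and most of their mRNAs are short-lived. In epidermis AP-1 binds regulatory regions of genes of keratinocyte growth, wound repair and cornification.

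Hnrnpu itself was not lower in the knockout-labelled libraries. It had normalized counts of 1450, 1318 and 1160 across controls 1 to 3, against 1565, 1342 and 1036 in knockout-labelled libraries 1 to 3, a log2 difference of −0.01 ± 0.20 (SE, 3 libraries a group, limma adjusted p = 0.976). This gene count does not check a small deletion, so every direction below rests on the labels. Xist, the RNA of the inactive X chromosome, reached 5656 and 4758 normalized counts in knockout-labelled libraries 2 and 3 and at most 3.27 in the other 4. Knockout 1, at 1.87, lay within the range of the controls. High Xist thus occurred only in libraries labelled knockout, so sex may be partly mixed with group, and its part in the differences was not tested. Estimated depth was 6.46 to 9.12 M assigned reads, lowest in knockout 2. Keratinocyte markers were present (all 11 in the table, none at 0). They summed to 876300 to 947700 normalized counts in controls and 681000 to 925500 in the knockout-labelled libraries. Krt1 was at 291616 to 304552 in controls and 199681 to 352515 in the knockout-labelled libraries. Krt10 was at 263804 to 291291 and at 159412 to 258828, without overlap, but did not pass the test. Of the 11 markers, 1 rose (Krt14, log2 difference 3.21) and 1 fell (Krt15, log2 difference −6.84), with limma adjusted p = 0.00547 and 0.000600. Each was 9.09% of the markers, beside 17.7% of all tested genes that rose and 15.9% that fell.

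The promoters of 8 of the 10 genes were taken by symbol from RefSeq (GRCm38.p6, another build than the authors' mm39), and those of Fosl1 and Egr1 were not used. The 250 bases before the annotated start are shown for Ier3, Junb and Dusp1, which rose, and for Fos, whose difference did not pass the test. Capitals mark a CCAAT box in Ier3 (2 of them) and Junb, a cAMP response element in Dusp1 and a TATA box in Fos, as found by matching letters.
Ier3, chr17:35821463-35821712, plus strand: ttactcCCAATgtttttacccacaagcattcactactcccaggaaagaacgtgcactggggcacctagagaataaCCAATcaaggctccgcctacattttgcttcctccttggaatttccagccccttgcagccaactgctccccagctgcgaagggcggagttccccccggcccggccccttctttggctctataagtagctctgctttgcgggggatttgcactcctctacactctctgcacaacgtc
Junb, chr8:84978749-84978998, minus strand: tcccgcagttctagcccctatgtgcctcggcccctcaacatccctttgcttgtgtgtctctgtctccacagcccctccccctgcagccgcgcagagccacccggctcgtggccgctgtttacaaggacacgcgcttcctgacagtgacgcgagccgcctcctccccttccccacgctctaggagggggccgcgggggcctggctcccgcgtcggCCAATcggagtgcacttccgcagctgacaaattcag
Dusp1, chr17:26508473-26508722, minus strand: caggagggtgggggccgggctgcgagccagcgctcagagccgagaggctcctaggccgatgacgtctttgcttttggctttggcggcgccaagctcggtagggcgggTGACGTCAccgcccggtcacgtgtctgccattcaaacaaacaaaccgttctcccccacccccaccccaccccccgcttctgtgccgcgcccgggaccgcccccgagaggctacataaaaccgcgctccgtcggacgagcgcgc
Fos, chr12:85473640-85473889, plus strand: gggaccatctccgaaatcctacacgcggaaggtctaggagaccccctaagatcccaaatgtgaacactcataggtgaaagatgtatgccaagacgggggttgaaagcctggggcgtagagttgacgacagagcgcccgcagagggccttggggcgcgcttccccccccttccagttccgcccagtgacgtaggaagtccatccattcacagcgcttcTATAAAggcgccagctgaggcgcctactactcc

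Each motif was searched on both strands, and a CArG box can itself hold the letters of a CCAAT or TATA box. The AP-1 site, TGACTCA or TGAGTCA, was in 0 of the 8 windows and in 4.46% of 32851 promoter windows of the same length. The CArG box, the binding sequence of serum response factor, was likewise in 0 of 8 and in 1.47% of all windows. The promoter of Egr1, a gene induced by serum response factor, was left out of the search. The 0 of 8 therefore says nothing about Egr1. The cAMP response element, TGACGTCA, was in 1 of 8 (Dusp1) and in 1.55% of all. The CCAAT box was in 3 of 8 (Jun, Junb and Ier3) and in 33.8% of all, and TATAAA in 1 of 8 (Fos) and in 12.4%. GCGNGGGCG, a sequence bound by EGR proteins, was in 2 of 8 (Fosb and Fosl2) and in 4.70% of all windows. Fosl1, which rose, had no window to search. The windows of the other members that rose held no motif that all shared. A missing match says only that these letters are not in this window.

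Of the 10 genes, 6 rose in the knockout-labelled libraries and 0 fell (limma, Benjamini-Hochberg adjusted p below 0.05 over 12872 tested genes), where 17.7% of all tested genes rose and 15.9% fell (33.6% together). The 6 were Fosl1, Ier3, Junb, Jun, Jund and Dusp1. Their 3 values in the knockout-labelled libraries all lay above the 3 controls, as they did for 25.8% of all tested genes (25.0% lay below and 50.8% on either side), while the values of Fos, Fosb, Fosl2 and Egr1 overlapped between the groups. The median log2 difference of the 10 was 0.89, beside −0.02 over all tested genes. Fold changes are on the scale of log2(normalized count + 1). In bulk tissue, fewer cells of a type and less RNA per cell cannot be told apart.

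**Figure D1:**
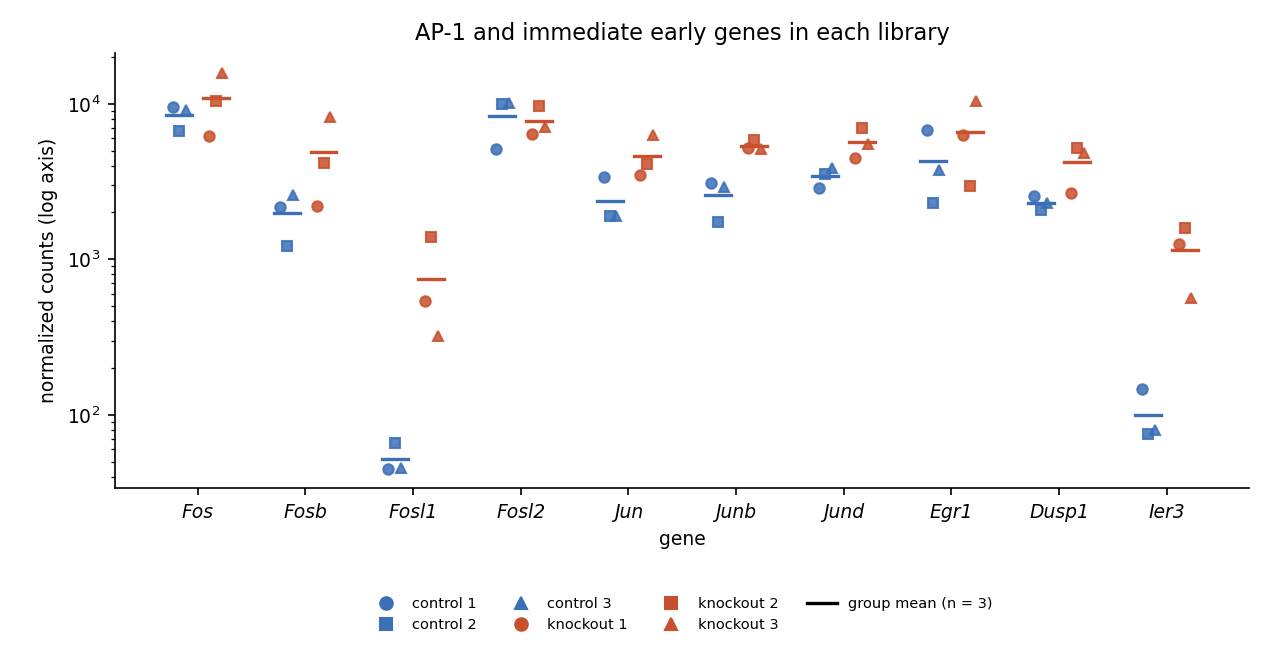
Normalized counts (log axis) of the 10 genes in each library, with 1 point per library (blue controls, orange libraries labelled knockout, shapes for replicates 1 to 3) and a bar at the group mean. Fosl1 and Ier3 separate the groups widely, Junb, Jund, Jun and Dusp1 narrowly, and Fos, Fosb, Fosl2 and Egr1 overlap.

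Among the Fos family only Fosl1 passed the test. Fosl1 encodes FRA-1, a Fos protein that lacks the strong activation domain of FOS and is known from wounded and migrating epithelium. Its normalized counts were 45.1, 65.8 and 45.2 across controls 1 to 3, against 536, 1387 and 321 in knockout-labelled libraries 1 to 3. The lowest of those libraries exceeded the highest control several-fold, and knockout 2 was the highest. The difference was 3.57 ± 0.47 in log2 units (SE, 3 libraries a group, limma adjusted p = 0.00120), an 11.9-fold rise with a 95% interval of 5.63 to 25.2. It was called under all 17 alternatives (adjusted p 0.000166 to 0.0316), and with knockout 1 alone against the controls the log2 difference was 3.36 (limma adjusted p = 0.00212).

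Fos, the prototype of the family, did not pass. It had normalized counts of 9585, 6709 and 9163 across controls 1 to 3, against 6208, 10445 and 15874 in knockout-labelled libraries 1 to 3. Knockout 1 was the lowest of all 6 libraries and knockout 3 the highest, so the groups overlapped. The log2 difference was 0.27 ± 0.33 (limma adjusted p = 0.552), with a 95% interval of 71.5 to 203.0% of the control level, and it was −0.07 with equal library totals and −0.45 with quantile normalization.

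Fosb, whose protein resembles FOS and which is also known for a shorter spliced form, had normalized counts of 2178, 1218 and 2598 across controls 1 to 3, against 2188, 4141 and 8286 in knockout-labelled libraries 1 to 3. Knockout 1 lay within the range of the controls, and the other two lay above it. The log2 difference of 1.15 ± 0.47 did not pass (limma adjusted p = 0.0884), but it passed with the replicate block of neighbouring animal numbers (limma adjusted p = 0.0246) and without knockout 1, where it was 1.62 (limma adjusted p = 0.0239, range over the 17 alternatives 0.0239 to 0.757). Fosl2 encodes FRA-2, the other Fos protein without the strong activation domain, which is known in differentiating keratinocytes. Its normalized counts were 5128, 9946 and 10099 across controls 1 to 3, against 6387, 9650 and 7092 in knockout-labelled libraries 1 to 3. All 3 of the latter lay inside the range of the controls. The log2 difference was −0.08 ± 0.30 (limma adjusted p = 0.854), with a 95% interval of 59.3 to 151.3% of the control level. With quantile normalization it was −0.81 and passed as lower (limma adjusted p = 0.0440, range over the alternatives 0.0440 to 0.954).

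The difference between Fosl1 and its relatives showed in the makeup of the family. Levels were compared per kilobase of exon, with lengths from GENCODE M21 gene models. In controls the order per kilobase was Fos at 4026 ± 737 (SD, n = 3), Fosl2 at 1283 ± 432, Fosb at 528 ± 187 and Fosl1 at 27.9 ± 6.40, with no overlap between neighbours. In the knockout-labelled libraries Fos remained first at 5143 ± 2298, while Fosb (1288 ± 824) and Fosl2 (1179 ± 263) overlapped. The range of Fosl1 (401 ± 302) overlapped that of Fosb, but within each of these libraries Fosl1 was still the lowest of the family. Across knockout-labelled libraries 1 to 3 Fosl1 was at 287.4, 744.0 and 172.5, beside 578.4, 1095 and 2191 for Fosb. Fosl1 made up 0.367 to 0.698% of the summed Fos family level in controls and 1.57 to 8.997% in the knockout-labelled libraries. The share of Fos ranged from 62.9 to 76.7% and from 59.9 to 68.6%, so those ranges overlapped.

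**Figure D2:**
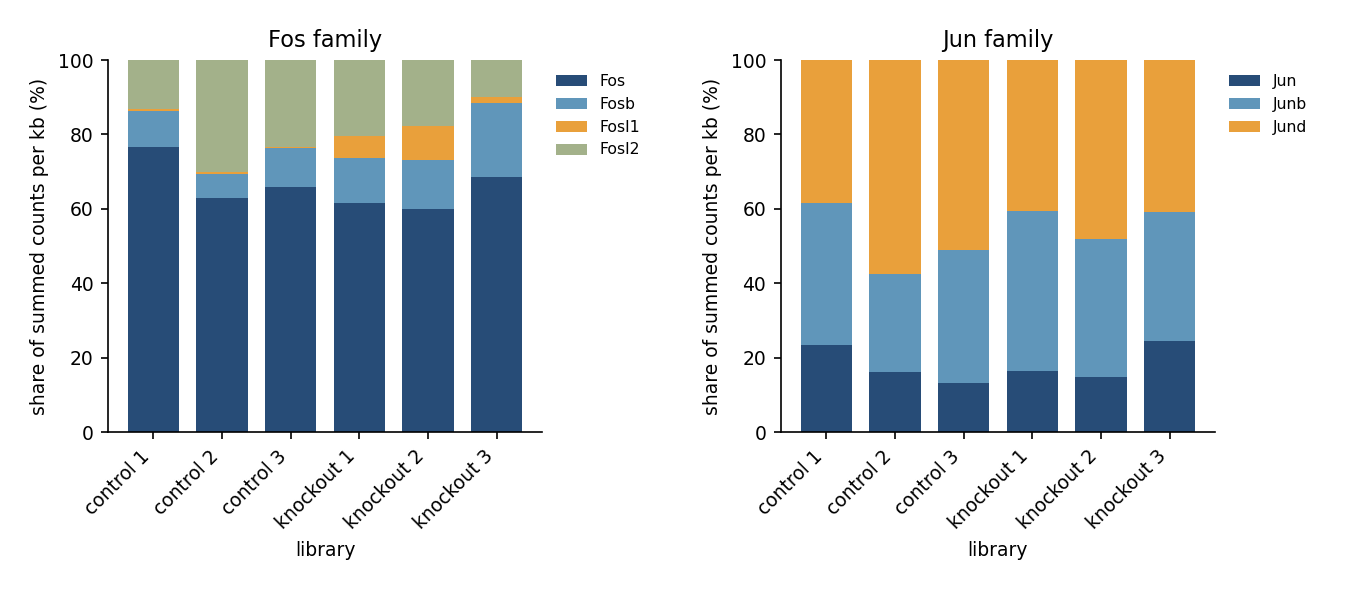
Share (%) of each gene in the summed normalized counts per kilobase of exon, for the Fos family (left) and the Jun family (right), 1 bar per library. Fos is the largest part of the Fos family in every library, and the Fosl1 band, under 1% in controls, reaches 8.997% in the library labelled knockout 2.

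All 3 genes of the Jun family rose, with smaller fold changes than that of Fosl1. Junb encodes a Jun protein that often limits the activity of JUN. It had normalized counts of 3086, 1738 and 2921 across controls 1 to 3, against 5159, 5808 and 5117 in knockout-labelled libraries 1 to 3. The latter values were close to each other and all above the controls. The rise was 1.10 ± 0.24 in log2 units (limma adjusted p = 0.00960), or 2.14-fold with a 95% interval of 1.47 to 3.11. It was called whichever single library was left out, but not with quantile normalization (0.61, limma adjusted p = 0.0990), with knockout 1 alone (1.04, limma adjusted p = 0.0723) or against control 1 alone (0.79, limma adjusted p = 0.221), over alternatives that ranged from 0.00588 to 0.221.

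Jun, the prototype Jun protein, had normalized counts of 3366, 1895 and 1898 across controls 1 to 3, against 3489, 4073 and 6299 in knockout-labelled libraries 1 to 3. The groups separated by a small gap, since control 1 nearly reached knockout 1. The rise was 0.96 ± 0.30 (limma adjusted p = 0.0370), or 1.95-fold with a 95% interval of 1.22 to 3.11. The call was lost without control 2, control 3, knockout 2 or knockout 3 (limma adjusted p = 0.127, 0.123, 0.0607 and 0.0844) and with equal library totals (0.166).

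Jund, the Jun family member usually least tied to stimulation, had normalized counts of 2892, 3523 and 3842 across controls 1 to 3, against 4509, 6943 and 5510 in knockout-labelled libraries 1 to 3. The groups did not overlap. The rise was 0.71 ± 0.21 (limma adjusted p = 0.0318), or 1.64-fold with a 95% interval of 1.17 to 2.29. The call was lost without control 1, 2 or 3 (limma adjusted p = 0.118, 0.0883 and 0.0609), without knockout 2 or 3 (0.0691 and 0.0535) and with equal library totals (0.0789).

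Per kilobase, the control order within the Jun family was Jund at 2050 ± 290 (SD, n = 3), Junb at 1427 ± 407 and Jun at 749 ± 266. The ranges of Junb and Jun overlapped, but Junb was above Jun within every control. In the knockout-labelled libraries Jund (3390 ± 734) and Junb (2964 ± 214) overlapped and Jun (1449 ± 465) lay below both. The summed level per kilobase was 4226 ± 483 in controls (3667 to 4514) and 7802 ± 1035 in the knockout-labelled libraries (6649 to 8651), with no overlap. The sum of the Fos family was 5865 ± 773 and 8012 ± 3103, and there the groups overlapped (5062 to 6603 and 4788 to 10978). The shares of the 3 Jun genes overlapped between the groups, with Junb at 26.2 to 38.0% in controls and 34.9 to 42.9% in the knockout-labelled libraries.

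Ier3 rose about as much as Fosl1. It encodes a small stress-induced protein that acts in cell survival and in signalling by extracellular signal-regulated kinases. Its normalized counts were 146, 75.3 and 80.1 across controls 1 to 3, against 1260, 1592 and 568 in knockout-labelled libraries 1 to 3. Every one of the latter lay well above every control. The rise was 3.43 ± 0.40 in log2 units (limma adjusted p = 0.000716), or 10.8-fold with a 95% interval of 5.70 to 20.5, and it was called under all 17 alternatives (adjusted p 0.000202 to 0.0350).

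Dusp1 encodes a nuclear phosphatase that switches off p38 and JNK kinases and is itself induced by stress. It had normalized counts of 2555, 2083 and 2293 across controls 1 to 3, against 2686, 5198 and 4860 in knockout-labelled libraries 1 to 3. Knockout 1 was just above the controls and the other two were clearly higher. The rise was 0.82 ± 0.26 (limma adjusted p = 0.0404), or 1.77-fold with a 95% interval of 1.17 to 2.68. The call was lost without control 1, 2 or 3 (limma adjusted p = 0.0779, 0.128 and 0.105), without knockout 2 or 3 (0.105 and 0.0927), with knockout 1 alone (0.466, log2 difference 0.22) and with equal library totals (0.119).

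Egr1 encodes a zinc finger transcription factor induced with Fos by serum response factor. Its normalized counts were 6779, 2293 and 3744 across controls 1 to 3, against 6341, 2982 and 10424 in knockout-labelled libraries 1 to 3. Both groups spread over about the same range, except for the high value of knockout 3. The log2 difference was 0.59 ± 0.50 (limma adjusted p = 0.383), with a 95% interval of 68.4 to 329.8% of the control level.

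**Figure D3:**
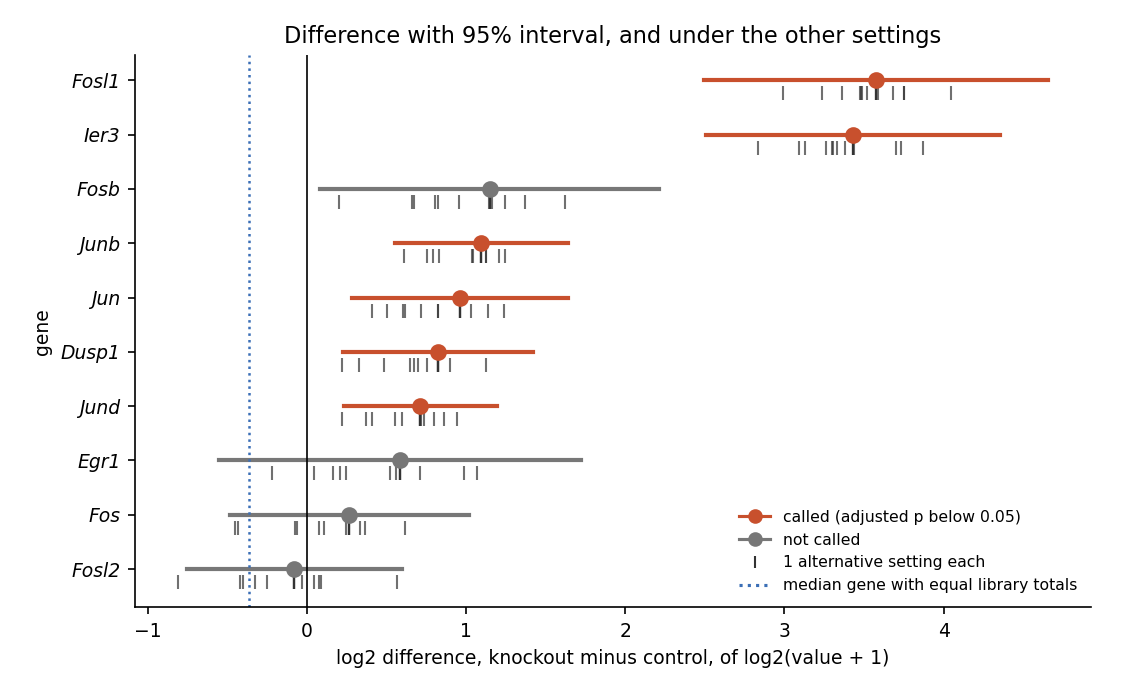
Log2 difference (knockout minus control) of each gene, with a dot and a 95% interval for the fit reported (orange where called, grey where not) and short black ticks for the 17 alternative settings. The ticks of Fosl1 and Ier3 lie between 2.83 and 4.05, far from 0 and from the median gene with equal library totals at −0.36 (dotted line), while those of Fos, Fosl2 and Egr1 lie on both sides of 0.

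The scale matters for the smaller rises. With library totals set equal, the median of all genes moved from −0.02 to −0.36, and 1440 genes were higher and 3065 lower, beside 2279 and 2049 as deposited. Under that scaling 3 members were called higher (Fosl1, Ier3 and Junb), and with quantile normalization 2 were called higher (Fosl1 and Ier3) and 1 lower (Fosl2). For each of the 6 genes that rose, the two-sided exact permutation p was 0.1, the smallest p that 3 against 3 libraries allow.

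The members varied among animals of a group in different ways. The pooled within-group SD on the log2 scale was 0.85 for Egr1, 0.79 for Fosb, 0.79 for Fosl1 and 0.66 for Ier3, and only 9.94% of tested genes had a larger SD than Egr1. Junb (0.33) and Jund (0.27) were near or below the median of 0.34 over all tested genes. Within the knockout-labelled libraries, Fos, Fosb, Jun and Egr1 were highest in knockout 3, while the other 6 members, Fosl1, Fosl2, Junb, Jund, Dusp1 and Ier3, were highest in knockout 2. None of the 10 was highest in knockout 1. The share of all tested genes highest in each library was not counted. Normalized totals were 8191409, 10987666 and 8469679 in knockout-labelled libraries 1 to 3, and 6850663 to 7453638 in controls. Among the controls, Fos, Jun, Junb, Egr1, Dusp1 and Ier3 were highest in control 1.

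The titles give same-numbered replicates neighbouring animal numbers, which makes 3 pairs of a control and a knockout-labelled library. Fosl1 differed by 3.54, 4.38 and 2.80 on the log2 scale within these pairs, and Ier3 by 3.10, 4.38 and 2.81. Jun differed by 0.05, 1.10 and 1.73, Dusp1 by 0.07, 1.32 and 1.08, and Egr1 by −0.10, 0.38 and 1.48. The pair of replicate 1 thus showed almost no difference in Jun and Dusp1, and in that pair Fos differed by −0.63. In all 3 pairs 7 of the 10 genes were higher in the library labelled knockout. The same share over all tested genes was not counted, so this count has no background to be read against.

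Genes with the profiles most like those of Fosl1 and Fos were found by the root mean square difference of centred log2 values over the 6 libraries. For Fosl1 these were Ehf, an epithelial ETS transcription factor (0.16), the matrix protease Adamts5 (0.21), Bglap3 (0.23), the glutathione-degrading enzyme Chac1 (0.26) and Serinc2 (0.27). Ehf had normalized counts of 150, 257 and 128 across controls 1 to 3, against 1611, 3981 and 1090 in knockout-labelled libraries 1 to 3. For Fos they were Cd3eap (0.13), Klhl28 (0.16), Gm10012 (0.17), Ttf1 (0.17) and D030028A08Rik (0.18), none of which passed the test. Cd3eap, for example, had normalized counts of 143, 112 and 131 across controls 1 to 3, against 102, 146 and 207 in knockout-labelled libraries 1 to 3.

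Partners of AP-1 outside the Fos and Jun families moved in part. Of 9 tested genes of the ATF, BATF, JDP2 and MAF groups, 4 rose (44.4%, beside 17.7% of all tested genes) and 0 fell (beside 15.9%), with a median log2 difference of 0.98. The 3 small MAF genes, whose proteins lack an activation domain, all rose: Mafk by 1.45 ± 0.18, Mafg by 1.11 ± 0.21 and Maff by 1.82 ± 0.34 (limma adjusted p = 0.000974, 0.00517 and 0.00529). Jdp2, which encodes a Jun-binding repressor, had normalized counts of 3.02, 4.43 and 4.90 across controls 1 to 3, against 46.7, 104 and 19.96 in knockout-labelled libraries 1 to 3, a rise of 3.22 ± 0.64 (limma adjusted p = 0.00686). The levels of Jdp2 in controls were only a few reads.

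Of 37 other tested immediate early genes, 18 rose (48.6%, beside 17.7% of all tested genes) and 0 fell (beside 15.9%), with a median log2 difference of 0.95. The lists share genes: Maff and Atf3 are also counted among the partners above, and Zfp36 among the decay genes below. With equal library totals 12 rose and 1 fell, beside 1440 and 3065 of all 12872 tested genes. With quantile normalization 16 rose and 2 fell, beside 2212 and 2218. Ptgs2, the inducible prostaglandin synthase, had normalized counts of 8.31, 37.2 and 22.1 across controls 1 to 3, against 1283, 10179 and 1459 in knockout-labelled libraries 1 to 3, a rise of 7.05 ± 0.80 (limma adjusted p = 0.000612). Arc, best known as an immediate early gene of neurons, rose by 2.85 ± 0.26 (limma adjusted p = 0.000222). The stress-responsive kinase gene Plk3 rose by 2.37 ± 0.30 and Zfp36, whose protein destabilizes short-lived mRNAs, by 1.73 ± 0.27 (limma adjusted p = 0.000940 and 0.00247). The count of genes that rose was 11 without control 2, and between 11 and 17 whichever library was left out.

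The shares of upstream genes called were near those of all tested genes, of which 17.7% rose and 15.9% fell. With equal library totals, 1440 of all 12872 tested genes rose and 3065 fell. Of 10 tested serum response and CREB factors, 1 rose and 2 fell, or 4 fell with equal library totals. Elk3 rose by 1.85 ± 0.39 (limma adjusted p = 0.00844). Mef2a and Mrtfb, which encode a MADS-box factor and a coactivator of serum response factor, fell by 1.07 ± 0.17 and 1.45 ± 0.26 in log2 units (limma adjusted p = 0.00244 and 0.00413). Of 20 MAP kinase genes, 5 rose (25.0%) and 3 fell (15.0%), which turned to 2 and 5 with equal library totals. Their median was 0.04, which became −0.30 with equal library totals and −0.17 with quantile normalization. Those that rose included Map2k3, an activator of p38 kinases, by 1.43 ± 0.22, and Mapk3, an extracellular signal-regulated kinase, by 1.18 ± 0.22 (limma adjusted p = 0.00250 and 0.00535). Mapk13 of the p38 group rose by 0.85 ± 0.18 and Map2k1, an activator of extracellular signal-regulated kinases, by 0.88 ± 0.23 (limma adjusted p = 0.00847 and 0.0193). The fifth was Mapk8, a JNK gene named after its values were seen, by 0.93 (limma adjusted p = 0.0259).

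The MAP kinase genes that fell were Map3k1 (−1.15 ± 0.21), Map2k6 (−1.53 ± 0.28) and Braf (−0.50 ± 0.16), with limma adjusted p = 0.00482, 0.00485 and 0.0449. The call of Braf was lost whichever single library was left out. That of Map2k1 was lost without control 1 or knockout 2, and that of Mapk8 without control 2, control 3, knockout 1 or knockout 2. With equal library totals the calls of Mapk13, Map2k1 and Mapk8 were lost as well. With the replicate block 5 MAP kinase genes and 4 serum response and CREB factors were lower. Over all 12872 tested genes, 2829 were lower with the block, beside 2049 without it.

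Genes that limit AP-1 by mRNA decay or protein turnover included 1 of 13 that rose, Zfp36 (7.69%, beside 17.7% of all tested genes), and 3 that fell (23.1%, beside 15.9%). With equal library totals 5 fell, as did 3065 of all 12872 tested genes. Hnrnpd, whose protein binds AU-rich elements in short-lived mRNAs, had normalized counts of 424, 417 and 346 across controls 1 to 3, against 211, 208 and 165 in knockout-labelled libraries 1 to 3. It fell by 1.02 ± 0.19 in log2 units (limma adjusted p = 0.00543). Cop1, which encodes a ubiquitin ligase that targets JUN, fell by 0.82 ± 0.18, and Tia1, an RNA-binding repressor of translation, by 1.02 ± 0.25 (limma adjusted p = 0.00942 and 0.0155). The Tia1 call was lost without control 1.

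Among 14 tested genes known as AP-1 targets in keratinocytes, 8 rose (57.1%, beside 17.7% of all tested genes) and 1 fell (7.14%, beside 15.9%), with a median log2 difference of 1.68. The cornified envelope precursors Sprr1b and Sprr1a rose by 7.12 ± 0.41 and 5.62 ± 0.51 (limma adjusted p = 3.79e-05 and 0.000228), though reads may be shared between these related genes. The transglutaminase gene Tgm1 rose by 1.71 ± 0.27 and the growth factor gene Vegfa by 1.84 ± 0.32 (limma adjusted p = 0.00249 and 0.00391). Plau, the urokinase gene, fell by 1.16 ± 0.37 (limma adjusted p = 0.0400), a call that was lost without control 1, control 3 or knockout 2. Without control 2 or control 3, 5 of the targets rose. Loricrin (Lor), another gene of the list, was at 20595 to 30711 normalized counts in all 6 libraries.

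**Figure D4:**
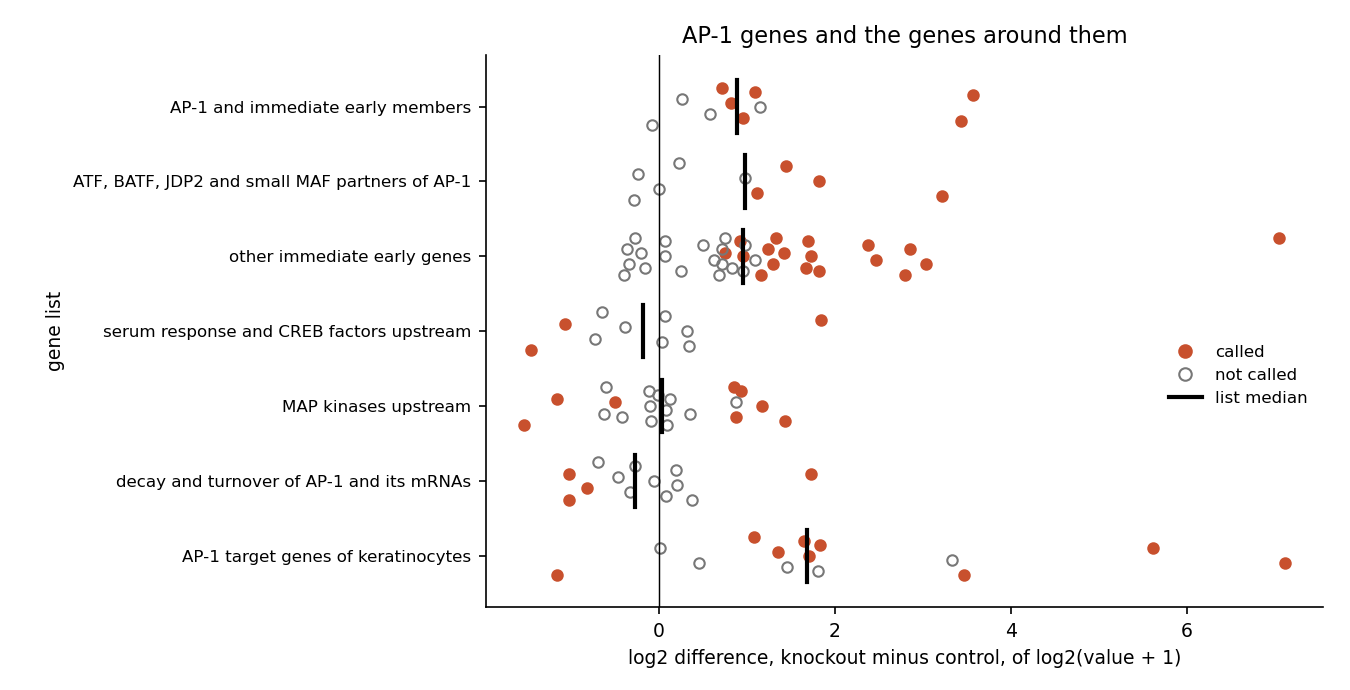
Log2 difference (knockout minus control) of each tested gene of the 7 lists, 1 point per gene, filled orange where called and open grey where not, with a black bar at the list median. The first 3 lists and the AP-1 targets have medians between 0.89 and 1.68, and those of the upstream factors, kinases and decay genes lie between −0.27 and 0.04.

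All 26 list genes named by rule kept their sign under the 17 alternatives. The rule took called genes from a fit of these same libraries, so stable signs were likely in advance. Most of these calls were lost when only the Wild type control was used. Markers of other cell types differed in how they related to the groups. Of all tested genes, 17.7% rose and 15.9% fell. The 8 melanocyte markers, such as Dct and Pmel, summed to 478 to 711 normalized counts in controls and 3104 to 4978 in the knockout-labelled libraries, and all 8 rose. The 5 of 10 fibroblast markers in the table summed to 168 to 503 in controls and 580 to 744 in the knockout-labelled libraries, but their members went different ways. The collagen genes Col1a1, Col1a2 and Col3a1 rose by 3.62, 1.65 and 3.81 in log2 units (limma adjusted p = 0.0124, 0.00452 and 0.00353). Those of the highest level, Dcn and Col5a1, overlapped between the groups, with log2 differences of −0.75 and 1.08 (limma adjusted p = 0.341 and 0.119). The 9 of 12 leukocyte markers summed to 271 to 481 in controls and to 212, 1393 and 359 in knockout-labelled libraries 1 to 3, so the groups overlapped. Of these leukocyte markers, 2 rose (Lyz2 and Cd68, 22.2%) and 1 fell (Cd3e, 11.1%), near the shares of all tested genes. The highest, Itgam and Ptprc, overlapped with log2 differences of 0.55 and −0.77 (limma adjusted p = 0.595 and 0.352). Of 7 endothelial markers only Pecam1 was in the table, at 2.66 to 5.72 in controls and 6.54 to 59.5 in the knockout-labelled libraries. None of these markers was at 0 in any library, and 0 of 8 muscle and adipocyte markers were in the table. The part of these cells in the differences was not tested.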

How the data were processed

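The deposited values are normalized counts per gene, a signal that is never negative, scaled per library by the authors by a method not given in the sources used here. TopHat2 2.1.0, Partek 9.0.20.0202 and the build mm39 are named per the submitters' processing notes. Between 80.9 and 83.4% of low values (up to 20 reads, within 0.02) were whole multiples of the value of 1 read, so whole reads could not be derived, and count models were left out. Strand settings are not given, so overlapping genes cannot be told apart. Symbols were matched by Ensembl ID for 12771 of 12894 genes.

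Genes above 1 in at least 3 libraries (12872) were tested on log2(value + 1) with limma 3.58.1 in R 4.3.3 (mean-variance trend, 3 against 3 libraries) and Benjamini-Hochberg adjustment over all of them at 0.05. The fit was tested on simulated data. No label states that replicates came from separate litters, and p-values measure only the spread between these libraries. Libraries with adjacent animal numbers deviated together (correlations 0.37, 0.23 and 0.36 of the deviations; other pairs −0.28 to −0.07), so the numbers were taken as pairs from the data. Alternatives were pseudocounts, filters, scaling, the trend, a robust fit, the replicate block, leaving out each library, and a single library of either group. The 10 genes and all lists were chosen with earlier results of these data known. The text names all 10, Hnrnpu, up to 4 called genes per list and direction by smallest adjusted p, the 5 nearest profiles of Fos and Fosl1, and the 2 highest markers per cell type. Xist, Mapk8, Lor and further markers (Krt14, Krt15, Col1a1, Col1a2, Col3a1, Lyz2, Cd68 and Cd3e) were added after their values were seen.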

Additional observations from a re-analysis of the deposited data

How the results depend on the processing

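Pseudocounts, filters and the robust fit changed no call among the 10 genes. The number of members called, 6, all higher, became 3 with equal library totals, 3 with quantile normalization (2 higher and 1 lower), 3 without the trend, 2 with knockout 1 alone and 2 against control 1 alone, an alternative chosen after seeing the data. It lay between 3 and 7 when single libraries were left out, with 0 lower. With the replicate block it was 7, all higher, and the block changed no other call among the 10 genes than that of Fosb. Without the trend the calls of Jun, Jund and Dusp1 were lost (limma adjusted p = 0.0714, 0.0629 and 0.0765). Over all genes, 4328 were called, 2711 with knockout 1 alone, 592 against control 1 alone, and 2631 to 4464 without single libraries. Of 100 genes on the surrounding lists 44 were called, beside 33.6% of all tested genes, and 10 against control 1 alone. The sign of Fos turned with equal library totals (−0.074), quantile normalization (−0.45), without knockout 3 (−0.058) and with knockout 1 alone (−0.43). That of Fosl2 turned without control 2 (0.08), control 3 (0.088) or knockout 1 (0.05) and against control 1 alone (0.57), and that of Egr1 against control 1 alone (−0.22). That of Hnrnpu turned without control 1 (0.07) or knockout 3 (0.15) and with knockout 1 alone (0.26). Over single libraries left out, Fos ranged from −0.058 to 0.62, Fosl2 from −0.40 to 0.088 and Hnrnpu from −0.15 to 0.15. The cause was not tested. A lone library is assumed to vary like the other group.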

Other observations

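The other immediate early genes did not share 1 order over the libraries. Of 37 in the table, 23 were highest in the library labelled knockout 2, 9 in knockout 3, 1 in knockout 1 and 4 in the controls (1, 1 and 2 in controls 1 to 3). The share over all genes was not counted. Knockout 2 also had the largest normalized total of the libraries (10987666), so these counts are not read as a trait of the list. Nr4a1, a nuclear receptor gene induced together with Egr1, was at 951, 287 and 520 normalized counts in controls 1 to 3 and at 852, 531 and 1792 in knockout-labelled libraries 1 to 3, an order close to that of Egr1. Atf3, a stress-induced AP-1 partner, was at 1302, 345 and 531 in controls 1 to 3 and at 693, 1121 and 2351 in knockout-labelled libraries 1 to 3. Both were chosen after their values were seen, and neither passed the test.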
